A study of Mus musculus with 6 samples.

Results

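The Hoxc cluster genes are the 9 homeobox genes Hoxc4, Hoxc5, Hoxc6, Hoxc8, Hoxc9, Hoxc10, Hoxc11, Hoxc12 and Hoxc13 on mouse chromosome 15. They were found by symbol in the deposited count table, where they occupied 8 of 51499 loci because Hoxc10 and Hoxc5 were counted together as 1 locus. The set was selected on the difference between genotypes in these same libraries, so that the members' counts and fold changes are given as a description without a test. RNA was sequenced from SV40 immortalized mouse embryonic fibroblasts (MEFs) of 2 genotypes, and 3 WT cultures were set against 3 Yme1l-/- cultures. YME1L, the product of Yme1l, is an ATP-dependent protease of the inner mitochondrial membrane. All cells came from primary MEFs with both Yme1l alleles floxed that received Cre recombinase. WT clones had kept the floxed alleles, whereas Yme1l-/- clones had lost both. Since cells were grown from individual clones, and the labels do not name the clone of a culture, a difference between the genotypes and a difference between clones cannot be told apart. In the headers of the counts, all 3 WT cultures are named WT2 and all 3 Yme1l-/- cultures YKO. Whether a name stands for 1 clone is not stated. Nothing in the labels ties the cultures to separate animals, so the spread between them may be technical.

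HOX genes encode transcription factors that bind DNA through the homeodomain and give cells their position along the body axis. Their order along each cluster follows the order of their expression domains, with the 5′ genes of high paralogue number acting in posterior and distal structures. Fibroblasts keep part of the HOX pattern of the body site from which they came, and Polycomb and Trithorax proteins maintain it. Mammals have the clusters Hoxa, Hoxb, Hoxc and Hoxd, in which genes of the same number are paralogues.

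On mm10, the annotated genes spanned 102921103 to 103036852 of chromosome 15, a stretch of 115.8 kb, all on the plus strand. From the 5′ end they lay in the order Hoxc13 (102921103 to 102928814), Hoxc12 (102936757 to 102938609), Hoxc11 (102954427 to 102957708), Hoxc10 (102966796 to 102971893), Hoxc9 (102976439 to 102985099), Hoxc8 (102990607 to 102994111), Hoxc6 (102998257 to 103011881), Hoxc5 (102967443 to 103017429) and Hoxc4 (103018934 to 103036852). The annotated span of Hoxc5 overlaps Hoxc10 and covers Hoxc9, Hoxc8 and Hoxc6, because a Hoxc5 transcript starts inside the Hoxc10 gene. The homeobox, the 180 bases that encode the homeodomain, lay in the last exon of every member. The homeoboxes of the most abundant member, the member whose libraries overlapped between the genotypes, the least raised member and the member at the 3′ end are shown, since the homeobox is the conserved part of HOX transcripts. They are taken from GENCODE release M21 on mm10, plus strand, at chr15:102927210-102927389 for Hoxc13, chr15:102956480-102956659 for Hoxc11, chr15:102992571-102992750 for Hoxc8 and chr15:103035663-103035842 for Hoxc4. Capitals mark the codons of the conserved tryptophan-phenylalanine-glutamine-asparagine-arginine-arginine motif in the DNA-contacting helix.
Hoxc13: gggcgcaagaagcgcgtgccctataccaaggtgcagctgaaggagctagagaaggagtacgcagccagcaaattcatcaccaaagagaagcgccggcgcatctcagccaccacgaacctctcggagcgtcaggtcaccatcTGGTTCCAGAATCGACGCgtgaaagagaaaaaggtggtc
Hoxc11: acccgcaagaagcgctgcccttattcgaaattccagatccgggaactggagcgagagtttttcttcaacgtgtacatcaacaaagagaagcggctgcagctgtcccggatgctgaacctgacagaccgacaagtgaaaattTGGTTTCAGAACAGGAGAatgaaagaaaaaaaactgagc
Hoxc8: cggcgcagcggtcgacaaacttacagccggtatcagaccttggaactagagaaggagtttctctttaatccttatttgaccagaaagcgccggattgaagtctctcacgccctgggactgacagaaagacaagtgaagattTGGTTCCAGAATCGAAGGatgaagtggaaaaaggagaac
Hoxc4: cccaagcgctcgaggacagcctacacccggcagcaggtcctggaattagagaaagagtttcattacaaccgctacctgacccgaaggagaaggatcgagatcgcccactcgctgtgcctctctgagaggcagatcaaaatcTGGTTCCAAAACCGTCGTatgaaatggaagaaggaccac
Between members, 48.3% to 77.8% of the homeobox bases were the same (median 59.7% over 36 pairs). Hoxc13 was closest to Hoxa13, with 77.2% of bases the same, and Hoxc11 to Hoxa11, with 86.7%. Over the whole annotated transcripts, no stretch of 100 bases, the length of a read, was shared between a member and a gene outside the cluster on either strand. Among the members, only Hoxc10 and Hoxc5 shared such stretches, 69 in all, which made up 3.81% of those of Hoxc10 and 2.31% of those of Hoxc5.

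The libraries held 33180867 to 34012520 counted fragments in WT and 34624075 to 49351107 in Yme1l-/-, and levels are given in CPM (counts relative to the TMM-scaled size of the library). A count of 3 fragments corresponded to 0.0589 to 0.0919 CPM. Yme1l1, the targeted gene, fell from 188.7 ± 5.16 CPM in WT to 39.1 ± 1.34 CPM in Yme1l-/- (SD, n = 3), in the direction of the labels. The fibroblast marker list was expressed in both genotypes, with summed levels of 10963 to 11520 CPM in WT and 6724 to 7207 CPM in Yme1l-/-. Of its 10 genes, 9 were tested, of which 1 (Col1a1) was higher and 7 were lower in Yme1l-/- (88.9% called, beside 67.7% of all loci tested). The calls of Col3a1 and Dcn were lost when any 1 Yme1l-/- library was left out and with a replicate block. WT replicate 2 stood apart for both, with 9860 fragments of Col3a1 against 2858 and 2974, and 257 of Dcn against 52 and 51. The defining marker Thy1 had 4, 6 and 4 fragments in WT and none in Yme1l-/-. Of the 6 epithelial markers, 2 were tested and both, Krt18 and Epcam, were lower, and the summed level was 33.1 to 35.1 CPM in WT and 0.373 to 0.686 CPM in Yme1l-/-. The other lists were low, but some of their genes moved with the genotype. The muscle list had a summed level of 0.398 to 0.604 CPM in WT and 2.2004 to 3.20 CPM in Yme1l-/-, where Des was higher (log2 fold change 2.60 ± 0.22, SE) and Myog had no fragment. Myod1 went the other way, with 5, 1 and 0 fragments in WT and none in Yme1l-/-, and was not tested. The haematopoietic list went from 1.86 to 2.08 CPM in WT to 4.03 to 4.71 CPM in Yme1l-/-, where Cd68 was higher (1.04 ± 0.14) and Ptprc had at most 1 fragment in any library. Without a test, Csf1r went from 3, 2 and 5 fragments in WT to 11, 20 and 11 in Yme1l-/-, and Itgam from 4, 4 and 2 to 9, 14 and 29. Of the endothelial list, 0.888 to 1.44 CPM in WT and 1.67 to 2.003 CPM in Yme1l-/-, Kdr was higher (0.72 ± 0.22), a call lost without WT replicate 3 or Yme1l-/- replicate 2. No gene of the neural or pluripotent lists was called, and their summed levels stayed at or below 1.81 CPM. The part of these marker differences in the values of the Hoxc genes was not tested. In such bulk samples, a larger share of cells with a transcript and more transcript per cell cannot be told apart.

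The Hoxc cluster was close to silent in WT and was transcribed at nearly all of its genes in Yme1l-/-. Summed over the 8 loci, 25, 35 and 56 fragments were counted in WT, against 2363, 3153 and 3260 in Yme1l-/-. The summed level went from 1.18 ± 0.489 CPM in WT to 64.7 ± 2.57 CPM in Yme1l-/- (SD, n = 3), a ratio of 54.8. The libraries of the genotypes did not overlap for 7 of the 8 loci, all with the higher values in Yme1l-/-. Among all 13867 loci tested, 35.9% were higher in Yme1l-/- without overlap. These 7 loci passed the filter on low counts only through the Yme1l-/- libraries. Because the set was selected on this contrast, nothing is read from their count.

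**Figure D1:**
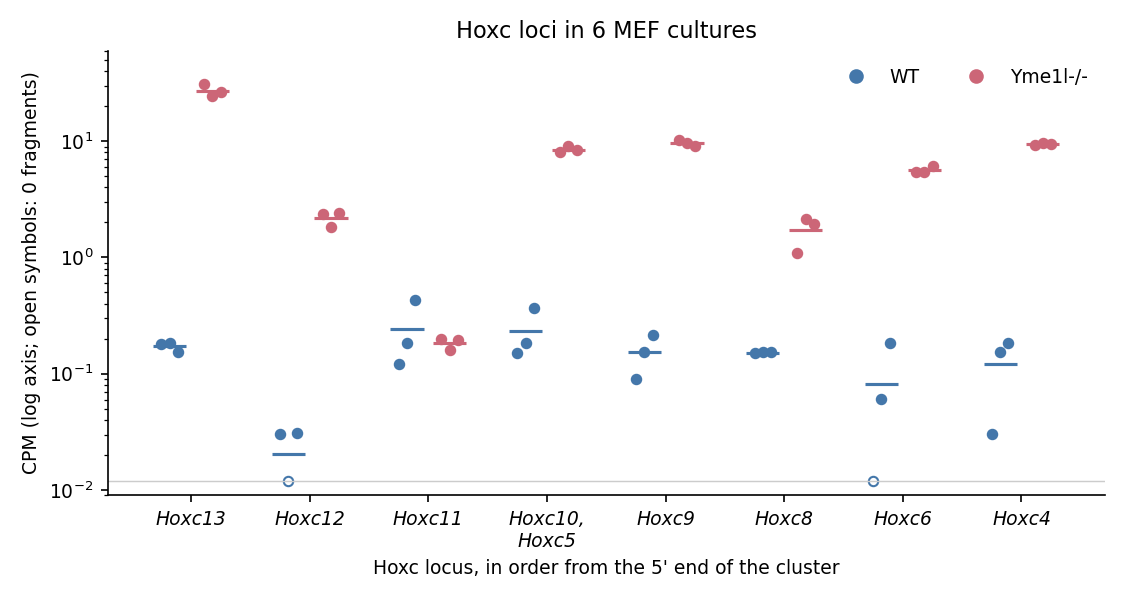
Levels of the 8 Hoxc loci in CPM on a log axis, in genomic order, with 1 symbol per library (blue WT, red Yme1l-/-, 3 each), horizontal lines at the means and open symbols for libraries with 0 fragments. All Yme1l-/- symbols lie above all WT symbols except at Hoxc11, where the genotypes overlap.

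The posterior genes at the 5′ end differed most from each other. Hoxc13, which acts in hair follicles and nails, was counted 6, 6 and 5 times in WT, against 1084, 1236 and 1343 times in Yme1l-/-. Its level went from 0.173 ± 0.0169 CPM to 27.3 ± 3.33 CPM (SD, n = 3), and the lowest Yme1l-/- library was 133.8-fold above the highest WT library. The log2 fold change, Yme1l-/- over WT, was 7.28 ± 0.17 (SE), the largest of the members with all libraries, though without WT replicate 3 it was 7.20, below the 7.41 of Hoxc6. Hoxc12, its neighbour, had 1, 0 and 1 fragments in WT and 82, 93 and 123 in Yme1l-/-. Every WT library was thus at or under 3 fragments, and a fold for Hoxc12 has little behind its denominator. The ratio of the summed counts, scaled to library size, was 107.6, with a 95% exact interval of 29.5 to 893 that covers counting error only.

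Hoxc11, which with its paralogues patterns the hindlimb and the kidney, was the exception. It had 4, 6 and 14 fragments in WT and 7, 8 and 10 in Yme1l-/-, between neighbours that had 82 to 455 fragments in the Yme1l-/- libraries. Its level was 0.244 ± 0.163 CPM in WT, against 0.185 ± 0.0229 CPM in Yme1l-/- (SD, n = 3), and all 3 Yme1l-/- libraries lay within the range of the WT libraries. Hoxc11 was the member that did not pass the filter on low counts. In the fit without that filter its log2 fold change was -0.41 ± 0.53 (SE), and the ratio of its summed counts was 0.752 with a 95% interval of 0.412 to 1.38. WT replicate 3 held 14 of its 24 WT fragments, and without that library the ratio was 1.21, with an interval of 0.560 to 2.82, so that its direction turned. Neither direction was thus given by these counts. Hoxc12 and the locus of Hoxc10 and Hoxc5, which flank it, were both higher in every Yme1l-/- library.

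The locus named for Hoxc10 and Hoxc5 joined a gene of lumbar identity with one that acts at neck and upper thoracic levels, and its fragments cannot be divided between them. It had 5, 6 and 12 fragments in WT and 281, 455 and 428 in Yme1l-/-, which corresponded to 0.234 ± 0.117 CPM and 8.48 ± 0.502 CPM (SD, n = 3). The log2 fold change was 5.17 ± 0.22 (SE). The lowest Yme1l-/- library was 21.8-fold above the highest WT library.

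The trunk genes followed. Hoxc9, which specifies thoracic motor neurons, had 3, 5 and 7 fragments in WT and 356, 490 and 461 in Yme1l-/-. Its level in Yme1l-/- was 9.65 ± 0.566 CPM (SD, n = 3), and the log2 fold change was 5.95 ± 0.20 (SE). Hoxc8, active at the brachial to thoracic level, had 5 fragments in each WT library, against 38, 107 and 99 in Yme1l-/-. It was the least raised of the members without overlap, with 1.72 ± 0.554 CPM in Yme1l-/- (SD, n = 3) and a log2 fold change of 3.49 ± 0.36 (SE). Replicate 1 of Yme1l-/- was at 1.09 CPM for Hoxc8, below the 2.12 and 1.94 CPM of replicates 2 and 3, but 7.09-fold above the highest WT library. The same replicate had the highest level of Hoxc13, 30.98 CPM against 24.5 and 26.4 CPM.

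At the 3′ end, Hoxc6, which marks the forelimb and upper trunk, had 0, 2 and 6 fragments in WT and 190, 276 and 313 in Yme1l-/-. It reached 5.68 ± 0.400 CPM in Yme1l-/- (SD, n = 3). The log2 fold change of Hoxc6 was 6.07 ± 0.37 (SE), and it depended on WT replicate 3, which held 6 of its 8 WT fragments, being 7.41 without that library. Hoxc4, the gene of the cluster expressed farthest towards the head, had 1, 5 and 6 fragments in WT and 325, 488 and 483 in Yme1l-/-. Its level of 9.48 ± 0.195 CPM in Yme1l-/- (SD, n = 3) varied least among the Yme1l-/- libraries relative to its mean, and its log2 fold change was 6.25 ± 0.25 (SE). Both genes were thus raised in every Yme1l-/- library although they lie at the opposite end from Hoxc13.

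Over the 7 loci that passed the filter, the median log2 fold change was 6.07, with a range of 3.49 to 7.28. These values chose the members and carry no test. The median over all loci tested was -0.0041. On chromosome 15, the other 538 loci tested had a median log2 fold change of 0.59, and 81.0% of them were above 0. Relative to that median, the 7 Hoxc loci had a median of 5.49.

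Levels of the members were compared with each other per kb of annotated exon. In Yme1l-/-, Hoxc13 stood first with 11.1 ± 1.35 CPM per kb, and its libraries did not overlap with those of the next locus. Hoxc9 (3.97 ± 0.233) and Hoxc4 (3.69 ± 0.0761 CPM per kb) came next and overlapped with each other. Hoxc6 (2.36 ± 0.166), Hoxc12 (2.13 ± 0.301) and the locus of Hoxc10 and Hoxc5 (1.76 ± 0.104 CPM per kb) formed a lower group in which each overlapped with its neighbour in the order. The joined locus was divided by the exons of both genes together, 4.83 kb, and every other locus by those of 1 gene. Since its fragments cannot be divided between the genes, the place of the joined locus in this order is not settled. Hoxc8 followed with 0.606 ± 0.196 CPM per kb and Hoxc11 with 0.0915 ± 0.0113 CPM per kb (all SD, n = 3), each apart from the locus above it. In WT, no neighbours in the order were apart, and Hoxc11 had the highest mean, 0.121 ± 0.0805 CPM per kb. The order from Hoxc9 to Hoxc12 differed between the measures. In the authors' pooled FPKM, given as 1 value per genotype, the Yme1l-/- levels were 11.6 for Hoxc13, 5.05 for Hoxc4, 4.66 for Hoxc6, 4.44 for Hoxc10 and Hoxc5, 4.26 for Hoxc9 and 2.53 for Hoxc12. Hoxc13 was first and Hoxc8 and Hoxc11 were last, at 0.958 and 0.0974 FPKM, on both scales.

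**Figure D2:**
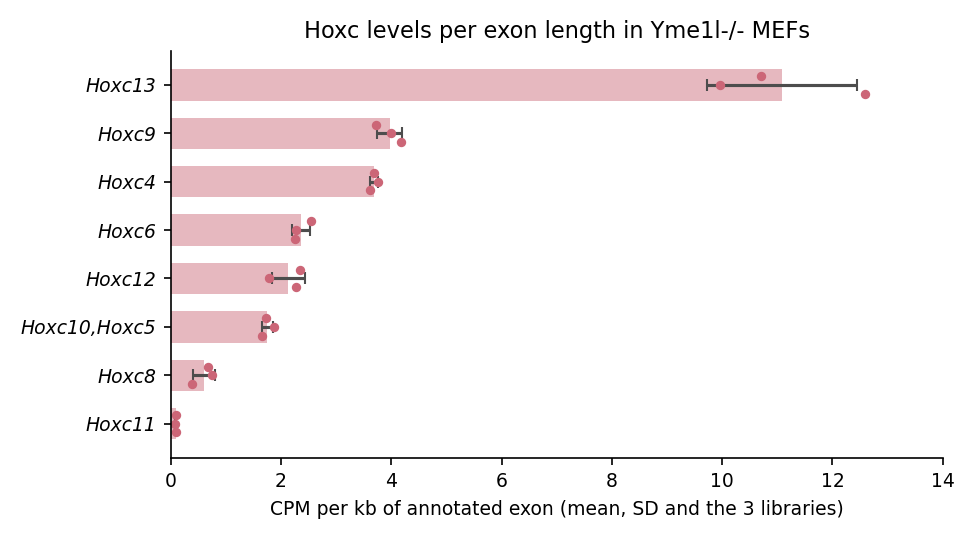
Level of each Hoxc locus in the Yme1l-/- libraries in CPM per kb of annotated exon, with bars at the mean, whiskers for the SD and points for the 3 libraries. Hoxc13 lies at 9.96 to 12.6 CPM per kb, beyond all other loci, and Hoxc11 lies below 0.1 CPM per kb.

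As a share of all Hoxc fragments, Hoxc13 took 42.1% ± 3.43 in Yme1l-/-, where Hoxc9, Hoxc4 and the locus of Hoxc10 and Hoxc5 took 14.9% ± 0.712, 14.7% ± 0.870 and 13.2% ± 1.27 (SD, n = 3). Hoxc11 held 19.4% ± 4.90 of the few Hoxc fragments in WT and 0.286% ± 0.0281 in Yme1l-/- (SD, n = 3). The WT shares rest on 25 to 56 fragments a library.

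The other transcripts counted inside the cluster were at or near 0. Hotair, a long noncoding RNA transcribed from the minus strand between Hoxc12 and Hoxc11, had no fragment in WT and 1, 5 and 2 fragments in Yme1l-/-, and it was not tested. Gm27337, Gm27443, Gm27535, Gm28011 and the microRNA genes Mir196a-2 and Mir615 had no fragment in any library. Mature microRNAs carry no poly(A) tail, so these libraries give no level for them. Both microRNAs are shown because their genes lie among the members and the seed of miR-196a has a match in a member. The mature sequences below are from RefSeq on GRCm38.p6, plus strand, chr15:102973365-102973386 for miR-196a-5p and chr15:103014969-103014990 for miR-615-3p, with the seed (bases 2 to 8) in capitals.
miR-196a-5p: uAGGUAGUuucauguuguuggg
miR-615-3p: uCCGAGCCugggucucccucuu
The 7 bases complementary to the miR-196a-5p seed, ACTACCT, were searched on the sense strand of the annotated 3′ untranslated regions. They occurred in 1 of the 9 members, Hoxc8, and in 6.10% of 21022 genes with such a region, whatever its length. Hoxc8 held the match at positions 135 and 892 of a region of 966 bases, and the matches are shown with the bases around them, the match in capitals.
Hoxc8 position 135: acactcacaactctaACTACCTgtcag
Hoxc8 position 892: ataaatctttaacatACTACCTaaagg
Hoxc8 was the member with the lowest Yme1l-/- level among those without overlap between the genotypes. The match is a feature of the sequence, binding was not measured, and a relation of the match to that level was not tested. For miR-615-3p, the 7 bases GGCTCGG were found in none of the 9 members and in 2.30% of all genes with such a region. The other arm of that hairpin, miR-615-5p, had a match to its seed (GGACCCC) in 2 of the 9 members, Hoxc11 and Hoxc6, and in 6.58% of all genes.

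To see how far the difference extended, the 73 other loci within 1 Mb of the cluster were examined, of which 33 were tested. With edgeR's quasi-likelihood test, 27 were higher, 1 was lower and 5 were not called. The share called higher was 81.8%, beside 74.5% of the other loci tested on chromosome 15 and 33.6% of all loci tested. Their median log2 fold change was 0.59, as on the chromosome as a whole, and 7 of the calls were at least 2-fold higher, beside 9.10% of all loci tested. Beyond Hoxc4, the nearest tested genes were Smug1 at 116.5 kb, Cbx5 at 154.7 kb and Hnrnpa1 at 203.6 kb, with log2 fold changes of 0.83, 0.48 and 0.42. Smug1 encodes a uracil-DNA glycosylase, Cbx5 the heterochromatin protein HP1α and Hnrnpa1 an RNA-binding protein. Each was called higher (edgeR adjusted p at most 1.7e-05). Before Hoxc13, the nearest were Calcoco1 at 198.9 kb (1.63, called), Atp5g2 at 248.8 kb (0.74, called) and the pseudogene Rpl39-ps at 285.8 kb (-0.23, not called, edgeR adjusted p = 0.506). Between Hoxc4 and Smug1, the untested loci Gm28876 at 59.3 kb and Gm10830 at 65.4 kb had no fragment in WT, and 7, 7 and 16 and 6, 2 and 2 fragments in Yme1l-/-. In the same stretch, Gm28265 had no fragment in WT and 0, 1 and 2 in Yme1l-/-, and 5730585A16Rik and D930007P13Rik had none in any library. These untested loci were chosen after their values were seen.

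Apart from Calcoco1, the calls of at least 2-fold were Pde1b, Itgb7, Zfp385a, Soat2, Prr13 and Csad. Pde1b, a calmodulin-dependent phosphodiesterase gene 466.2 kb beyond Hoxc4, went from 6, 1 and 4 fragments to 49, 73 and 92, with a log2 fold change of 3.76 ± 0.38 (SE). Itgb7, which encodes an integrin subunit of leukocytes, and Zfp385a, a zinc finger gene, had values of 2.89 ± 0.12 and 2.28 ± 0.07 (SE). Soat2, Prr13 and Csad lay between 1.31 and 1.81. In the opposite direction, Krt18, a keratin gene of simple epithelia 889.1 kb before Hoxc13, had 1048, 1086 and 1012 fragments in WT and 0, 1 and 3 in Yme1l-/-. Pde1b was the tested neighbour with the largest rise, and its log2 fold change was above the 3.49 of Hoxc8 and below those of the other 6 tested Hoxc loci.

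**Figure D3:**
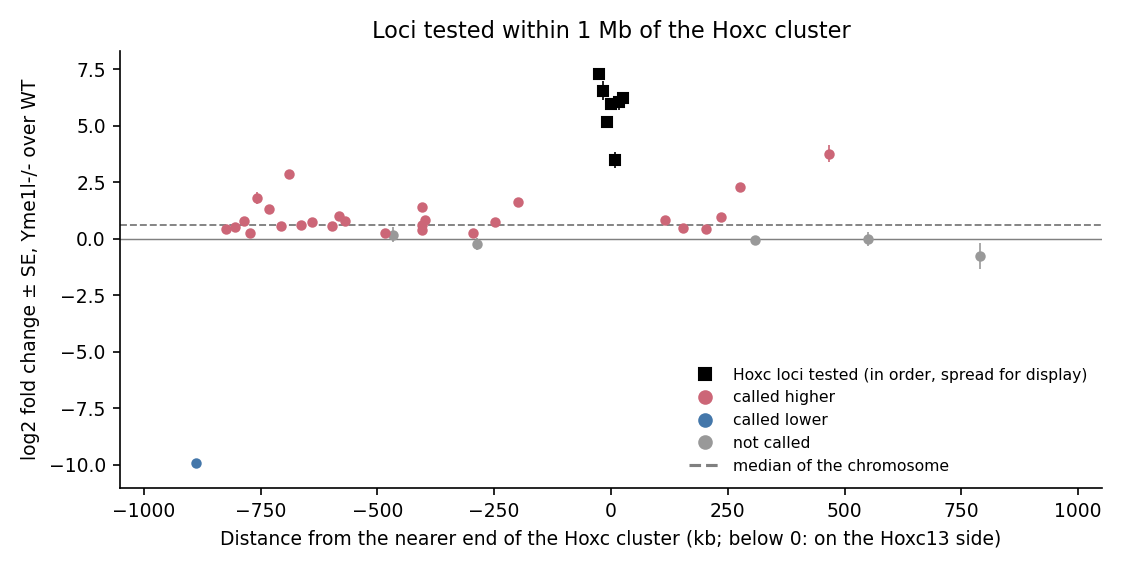
Log2 fold change (Yme1l-/- over WT, bars are SE) of the 33 tested neighbours against their distance in kb from the nearer end of the cluster, with the 7 tested Hoxc loci as black squares in genomic order, spread for display. Neighbours called higher lie between 0.25 and 3.76, around the dashed line at the chromosome 15 median of 0.59, Krt18 lies at -9.94, and 6 of the 7 Hoxc loci lie above 5.

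The Hoxc cluster was compared with the other HOX clusters, whose genes share the comparison and its libraries. Summed levels went from 134 ± 4.56 CPM in WT to 53.9 ± 0.392 CPM in Yme1l-/- for Hoxa, from 7.01 ± 0.925 to 161 ± 2.81 CPM for Hoxb, and from 205 ± 3.23 to 17.7 ± 0.823 CPM for Hoxd (SD, n = 3). Hoxc held 0.340% ± 0.141 of all HOX CPM in WT and 21.7% ± 0.567 in Yme1l-/- (SD, n = 3). The other HOX genes fell on 27 loci, of which 25 were tested, and with edgeR 15 were higher and 8 lower in Yme1l-/-. This was 92% called and 60% called higher, beside 67.7% and 33.6% of all loci tested. All 9 tested Hoxb loci were higher, of 10 tested Hoxa loci 4 were higher and 4 lower, and of 6 tested Hoxd loci 2 were higher and 4 lower. Hoxb was thus the only other cluster with all of its tested loci on the side of the Hoxc genes.

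By paralogue group, the members had partners that moved both ways. In group 13, whose genes act at the tail end of the body and in the digits, Hoxb13 rose from 10, 3 and 7 to 392, 581 and 609 fragments. Hoxa13 fell from 310, 271 and 359 to 3, 27 and 27 fragments, and Hoxd13 from 5823, 5728 and 5500 to none. Their summed level with Hoxc13 went from 183 ± 3.01 CPM in WT to 39.2 ± 2.87 CPM in Yme1l-/- (SD, n = 3), of which Hoxc13 made up 0.0942% ± 0.00791 and 69.4% ± 3.40.

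In group 12, Hoxd12 had 203, 222 and 221 fragments in WT and none in Yme1l-/-, so that Hoxc12 supplied all fragments of the group in Yme1l-/-. The summed level of that group was 6.58 ± 0.362 CPM in WT, and the 2.201 ± 0.311 CPM of Hoxc12 in Yme1l-/- (SD, n = 3) lay below it in every library. In group 11, where Hoxc11 showed no difference beyond its spread, Hoxa11 had 1262, 1255 and 1275 fragments in WT and 1, 0 and 2 in Yme1l-/-. The locus of Hoxd10 and Hoxd11 had 496, 508 and 519 fragments in WT and 0, 1 and 0 in Yme1l-/-. Hoxa10 fell with a log2 fold change of -1.39 ± 0.06 (SE), against 5.17 for the locus that holds Hoxc10. The Hoxa, Hoxb and Hoxd genes named in groups 10 to 13 were calls with an edgeR adjusted p of at most 5.7e-06.

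In group 9, Hoxb9 rose with a log2 fold change of 5.11 ± 0.11 (SE), beside the 5.95 of Hoxc9, and reached 66.5 ± 1.80 CPM (SD, n = 3) in Yme1l-/-. Hoxa9 fell with a log2 fold change of -3.09 ± 0.09 (SE), and Hoxd9 went from 26, 14 and 33 fragments to none. The group's summed level went from 32.98 ± 1.94 CPM in WT to 79.7 ± 2.39 CPM in Yme1l-/- (SD, n = 3), of which Hoxc9 made up 0.461% ± 0.175 and 12.1% ± 0.350. In group 8, Hoxb8 rose by 3.67 ± 0.14 and Hoxd8 by 0.88 ± 0.08 on the log2 scale (SE), beside 3.49 for Hoxc8. Hoxc8 remained the least of that group in Yme1l-/-, with 6.74% ± 2.06 (SD, n = 3) of its summed CPM. In the anterior groups, Hoxb6 rose by 3.38 ± 0.17 and Hoxb4 by 4.07 ± 0.15 on the log2 scale (SE). Hoxa4 rose by 1.05 ± 0.16, while Hoxa6, at 0.29 ± 0.24, and Hoxa5, at -0.22 ± 0.14 (SE), were not called. The Hoxa, Hoxb and Hoxd calls named in groups 4 to 9 had an edgeR adjusted p of at most 0.00014.

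**Figure D4:**
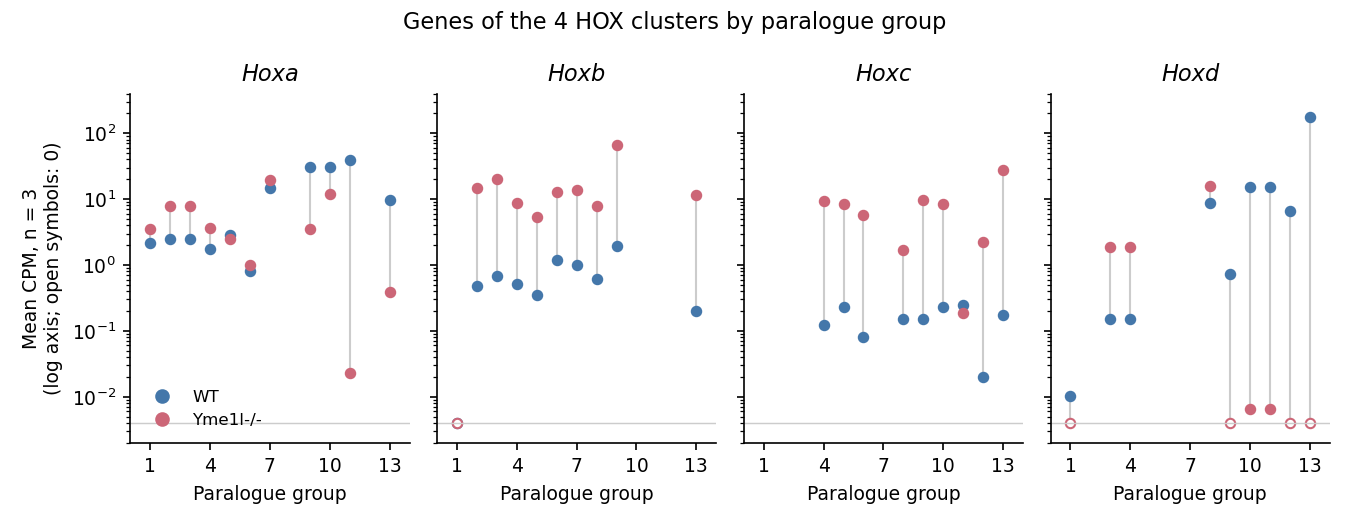
Mean CPM (n = 3, log axis) of each gene of the 4 HOX clusters by paralogue group, blue for WT and red for Yme1l-/-, joined by a line, with open symbols for 0. Genes counted in 1 locus (Hoxa2 with Hoxa3, Hoxc5 with Hoxc10, Hoxd3 with Hoxd4, Hoxd10 with Hoxd11) are drawn at the same level. Red lies above blue for all of Hoxb except Hoxb1, which is at 0 in both genotypes, and for all of Hoxc except Hoxc11, while blue lies above red for Hoxa9 to Hoxa13 and Hoxd9 to Hoxd13.

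Genes that act with or on HOX genes were listed by function. Of 9 genes for homeodomain cofactors, which bind DNA together with HOX proteins, all were tested, 6 were higher, 1 was lower and 2 (Pbx3 and Pknox1) were not called, so that 77.8% were called, beside 67.7% of all loci tested in either direction. The median log2 fold change was 0.90. Meis1 rose from 136, 116 and 124 to 666, 977 and 1122 fragments, with a log2 fold change of 2.40 ± 0.10 (SE, edgeR adjusted p = 3.2e-09). Meis3 and Meis2 rose by 1.34 ± 0.08 and 1.28 ± 0.06 on the log2 scale (SE). The cofactors were present in WT, with summed levels of 284 to 304 CPM, against 302 to 317 CPM in Yme1l-/-.

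Of 35 genes for chromatin regulators that keep HOX genes silent or active, 34 were tested. The list holds genes for Polycomb and Trithorax proteins and also Ctcf, which belongs to neither group and was among the lower calls. In Yme1l-/-, 14 were higher, 12 were lower and 8 were not called, with a median log2 fold change of 0.10. The share called, 76.5%, stood beside the 67.7% of all loci tested. Cbx7 and Cbx8, chromodomain subunits of Polycomb repressive complex 1, rose by 1.15 ± 0.08 and 1.10 ± 0.08 on the log2 scale (SE), and Phc2, a further subunit, was lower with -0.98 ± 0.06. Ezh2 and Suz12, of Polycomb repressive complex 2, rose by 0.34 ± 0.05 and 0.33 ± 0.05 (SE). Eed, of the same complex, was called lower with -0.18 ± 0.04 (SE), and these values were chosen after they were seen. Men1 was listed at 0 in every library, and whether its fragments were counted at another locus is not known here.

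Of 29 further transcription factors of limb and body position, 18 were tested, of which 7 were higher, 10 lower and 1 not called (94.4% called, beside 67.7% of all loci tested), and the call of Tbx2 as higher held in 3 of 11 alternatives. Tbx3, which acts in limb and mammary development, rose from 126, 132 and 136 to 1284, 1925 and 1873 fragments, with a log2 fold change of 3.22 ± 0.07 (SE). Tbx5, the forelimb factor, rose by 2.50 ± 0.11 on the log2 scale (SE), and the hindlimb factors Tbx4 and Pitx1 had at most 3 fragments in any library. Tbx15 and Twist1, factors of limb and skin mesenchyme, were lower, with -2.62 ± 0.07 and -1.88 ± 0.08 (SE). Larger falls were called for Sall1 (-10.0 ± 0.44), Alx4 (-7.30 ± 0.41) and Pax9 (-5.14 ± 0.33, SE). These genes were below 10 CPM in WT and are named after their values were seen. The edgeR adjusted p of Tbx3, Tbx5, Tbx15 and Twist1 was at most 7.2e-09, and that of Tbx2 was 0.048.

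Genes linked to Hoxc13 in hair follicles were mostly at or near 0. Of 25 such genes, 24 had a locus, 18 of which had at most 3 fragments in every library, and 5 were tested. Of these 2 were higher, 2 lower and 1 not called, or 80% called beside 67.7% of all loci tested. Foxn1, a Hoxc13 target of the hair follicle and nail, had 32, 44 and 44 fragments in WT and 19, 17 and 16 in Yme1l-/-, a log2 fold change of -1.65 ± 0.28 (SE, edgeR adjusted p = 0.00033). Foxq1, a hair-shaft factor, fell from 29, 38 and 29 to 2, 4 and 0 fragments, and Padi3, a peptidylarginine deiminase of hair and epidermis, rose from 4, 6 and 4 to 50, 35 and 62. Lef1 was higher by 0.85 ± 0.15 on the log2 scale (SE) and Msx2 was not called. These named genes stayed below 10 CPM and were chosen after their values were seen.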

How the data were processed

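Poly(A) RNA of 6 MEF cultures, 3 per genotype, had been sequenced as stranded read pairs. The submitters' processing notes name HISAT2 2.0.4, StringTie 1.3.3 and Cuffdiff 2.2.1 on GRCm38. The authors deposited raw counts of fragments by locus, with some overlapping genes merged and others counted apart. How fragments mapping to several places were counted is not given in the sources used here. A second table deposited by the authors holds pooled FPKM per genotype, used here as their value, together with their own fold changes and p-values, which were not used. Per-sample columns left out numbered 0.

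Counts were fitted in R 4.3.3 with edgeR 4.0.16. After filterByExpr with a minimum count of 10, 13867 loci were scaled with TMM and tested with the quasi-likelihood test (robust, two-sided, no covariates). Adjusted p-values (Benjamini-Hochberg) cover the whole table of tested loci, and those under 0.05 were calls. Folds are edgeR's (prior count 0.125), and SEs were derived from fold and test statistic. The procedure was tested on simulated data. Intervals of count ratios are exact and conditional on the sum, and intervals and the floor of 3 fragments cover counting error only. Exon lengths and sequences came from GENCODE M21, microRNAs from RefSeq. RefSeq promoter sequences matched 1 of the 9 members and were not used.

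The members and the gene lists were chosen with earlier results of these data known. Named were all members, all other loci inside the cluster, Yme1l1, the 3 nearest tested loci on each side, neighbours called at least 2-fold, paralogues of groups 8 to 13, and from each further list up to 4 calls with the largest changes and at least 10 CPM. Values of some single list members are left out. Paralogues of groups 4 to 6, and others so marked, were named after their values were seen. Alternatives were other scalings, DESeq2 1.42.0, other filters, a replicate block, leaving out each library, a prior count of 2 and subtraction of the chromosome 15 median.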

Additional observations from a re-analysis of the deposited data

How the results depend on the processing

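With at least 10 counts required in every sample, no Hoxc locus was left to test, 14 other HOX loci were called in place of 23, and 2 hair-linked genes in place of 4, since fewer loci were tested. The other alternatives turned the direction of none of the 7 tested Hoxc loci. The ratio of the summed Hoxc11 counts, 0.752 with all libraries, ranged from 0.599 to 1.21 when each library was left out, and was above 1 without WT replicate 3. Calls over all loci ranged from 8513 to 10051 (9387 as reported), and the 7 Hoxc loci without overlap were 7 under all 8 alternatives that rescale or leave out libraries. The median log2 fold change of the tested Hoxc loci ranged from 5.44 to 6.65. Hoxc13 was at 6.93 and Hoxc12 at 4.98 with a prior count of 2. After subtraction of the chromosome 15 median, Hoxc13 was at 6.69 and Hoxc8 at 2.90. Replicate numbers did not pair the samples (correlations of 0.144, -0.0939 and 0.048 between same-numbered libraries). With a replicate block, calls over all loci numbered 9794, and Hoxc13 was at 7.28. WT counts of at most 14 fragments per Hoxc locus limit every fold given here.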
